A study of Mus musculus with 2 samples.

Results

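Perforin and 7 other genes of killing that are not granzymes were followed in RNA from vesicles released by mouse cytotoxic T lymphocytes (CTL). The genes were Prf1, Srgn, Ctsw, Nkg7, Fasl, Tnfsf10, Crtam and Serpinb9, taken by their annotated symbol, and they are 8 of the 19316 genes named on the array. Each had 1 probe. All 8 had a value on at least 1 array, and 6 had a value on both.

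The study measured 2 samples, each on 1 single-colour Cy5 array. Both came from medium in which CTL had been kept for 7 days, which was concentrated and cleared of protein on a 750 kDa ultrafilter and loaded on a DEAE column. DEAE carries positive charge, so vesicles with a more negative surface hold on until more salt is added. One group was the fraction released at 0.3 M NaCl and the other the fraction released at 0.5 M NaCl, and the comparison asked whether the RNA of the 2 fractions differed. Neither the mouse strain, the stimulus nor the number of preparations is given in the sources used here. The RNA of the cells themselves was not analysed here, nor was medium without cells. A single array stands for each fraction, so nothing could be tested, no error between replicates could be had, and every difference describes this pair of arrays. A lower value cannot tell fewer vesicles with a transcript from less of it per vesicle.

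CTL kill along several routes. In the first, granules fuse with the membrane facing the target and release perforin, which makes pores, and granzymes, which are proteases that enter through them. Both are stored on the proteoglycan serglycin. In the other route, Fas ligand and TRAIL on the CTL surface bind death receptors and switch on caspases in the target. CTL also hold an inhibitor of granzyme B that protects them from their own enzymes.

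The deposited values are intensities on a linear scale, in whole numbers, with some cells of the table empty. An intensity of 32 was the median at 0.3 M and 26 that at 0.5 M over the 16154 probes with a value on both arrays. Each array was centred on that median on the log2 scale, which removed a shift of -0.30, and a difference is the centred value at 0.5 M less that at 0.3 M. A gene was kept if it was as bright as the median gene on either array (intensities of 32.0 and 26.1), and 7446 of 13735 genes measured on both arrays were kept. A gene could pass by its value on 1 array alone, which ties a median over kept genes to the direction of such genes. Of the 8 killing genes 4 were kept. Fasl and Serpinb9 lay just under the filter, and Tnfsf10 and Crtam had no difference to compute. Intensities of different probes are not amounts that can be set against each other, so levels are given as the percent of probes with a value on that array that were as dim or dimmer.

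The killing genes did not move together. Ctsw, Srgn and Nkg7 had more signal at 0.5 M, by 2.35, 2.05 and 1.67-fold after centring, whereas Prf1, Fasl and Serpinb9 had differences between -0.05 and 0.04. Ctsw and Srgn passed the 2-fold rule. That is 2 of 6 genes measured on both arrays, against 5.1% of all genes so measured, and 2 of the 4 kept, against 5.24% of all kept genes. No killing gene was 2-fold lower (0 of 4 kept, against 2.35%). With the values as deposited the count of higher genes was 0, since Ctsw then had a difference of 0.93 and Srgn one of 0.74. It was also 0 with a pseudocount of 16, where Ctsw was at 0.92 and Srgn at 0.73. The median over the 6 was 0.39, against 0.05 over all genes measured on both arrays, and it falls in the gap between the higher genes and the others.

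**Figure D1:**
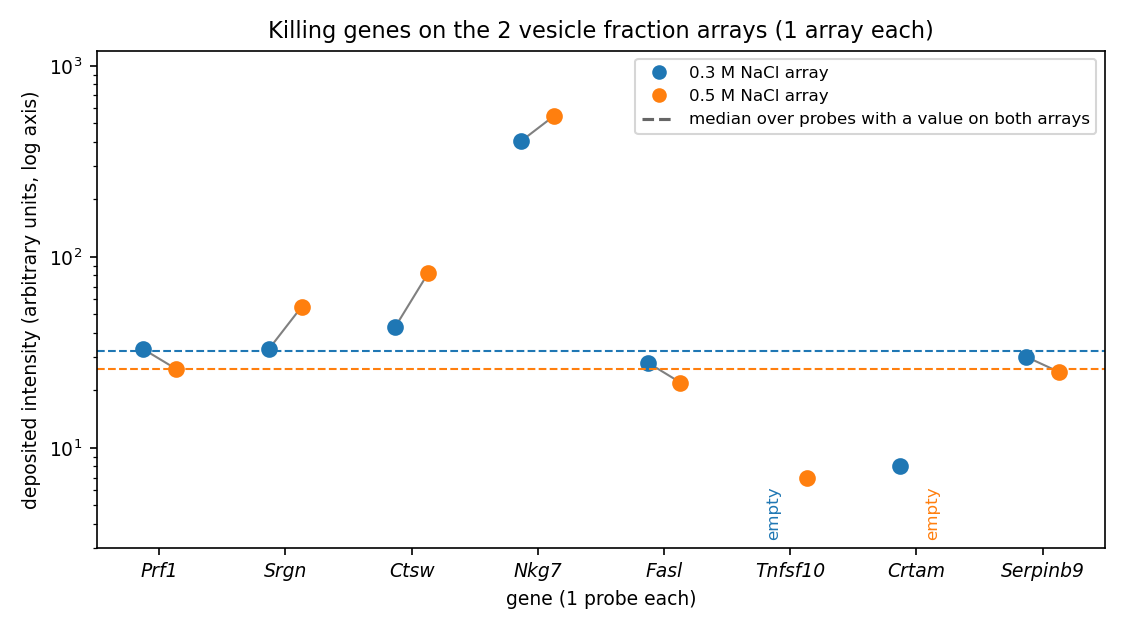
Deposited intensity (log axis) of each killing gene on the 0.3 M and the 0.5 M array, with the median of probes measured on both arrays as dashed lines. Srgn, Ctsw and Nkg7 had more signal at 0.5 M, Prf1, Fasl and Serpinb9 moved down by about as much as the dashed lines differ, and Tnfsf10 and Crtam have an empty cell; heights of different genes are not comparable amounts.

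Perforin itself, the pore former encoded by Prf1, gave a modest signal. Its probe read 33 at 0.3 M and 26 at 0.5 M. At 0.3 M 58.3% of probes were as dim or dimmer, and at 0.5 M 51.8%. The drop matched the shift between the arrays, and the centred difference was -0.04. Rounding of its own deposited values alone leaves that difference anywhere from -0.09 to 0.01, so its sign is not set by the data. As deposited it was -0.34.

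Srgn encodes serglycin, the proteoglycan core on whose chains perforin and granzymes are packed. It had the same intensity as Prf1 at 0.3 M, 33, but 55 at 0.5 M, where 70.7% of probes were as dim or dimmer. The centred difference was 1.04, with a rounding range of 1.002 to 1.07. At the lower end of that range it lay barely past the 2-fold line. The range holds the array medians fixed, and rounding of those whole-number medians was not counted, so Srgn may lie under 2-fold. Among kept genes 95.4% had a difference as low or lower.

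Ctsw, a papain-like protease made in CTL and natural killer (NK) cells, had the largest difference of the 6. It went from 43 at 0.3 M to 82 at 0.5 M, or from 65.0% to 78.1% of probes as dim or dimmer. The difference was 1.23, with a rounding range of 1.21 to 1.26. Among kept genes 97.9% had a difference as low or lower.

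Nkg7, a granule membrane protein that takes part in granule release, was bright on both arrays. It read 405 at 0.3 M and 548 at 0.5 M, where 93.8% and 94.7% of probes were as dim or dimmer. The difference was 0.74, below the 2-fold rule, and 87.4% of kept genes had one as low or lower. It was 0.54 with quantile normalization, 0.47 with a loess trend removed, 0.61 with the pseudocount and 0.44 as deposited. Bright probes as a class lay above 0, with a median difference of 0.64 over the 539 probes whose geometric mean intensity was 1000 or more and 0.14 over the 2800 probes from 100 to under 1000, the range that holds Nkg7.

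The spread of other probes gives the only scale for these values. Over the 2240 probes with a geometric mean from 50 to under 100, where Ctsw lies, differences at the 5th and 95th percentile were -0.72 and 0.87. Over the 4453 probes from 20 to under 50, where Srgn lies, they were -0.78 and 0.83, and from 100 to under 1000 they were -0.81 and 1.06. Ctsw and Srgn lay above these ranges and Nkg7 lay inside its own. Different probes of the same gene disagreed with an SD of 0.55 in 358 kept genes, and of 0.43 in 74 genes with probes from 20 to under 100 on both arrays. No killing gene has another probe by which its own error could be estimated.

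**Figure D2:**
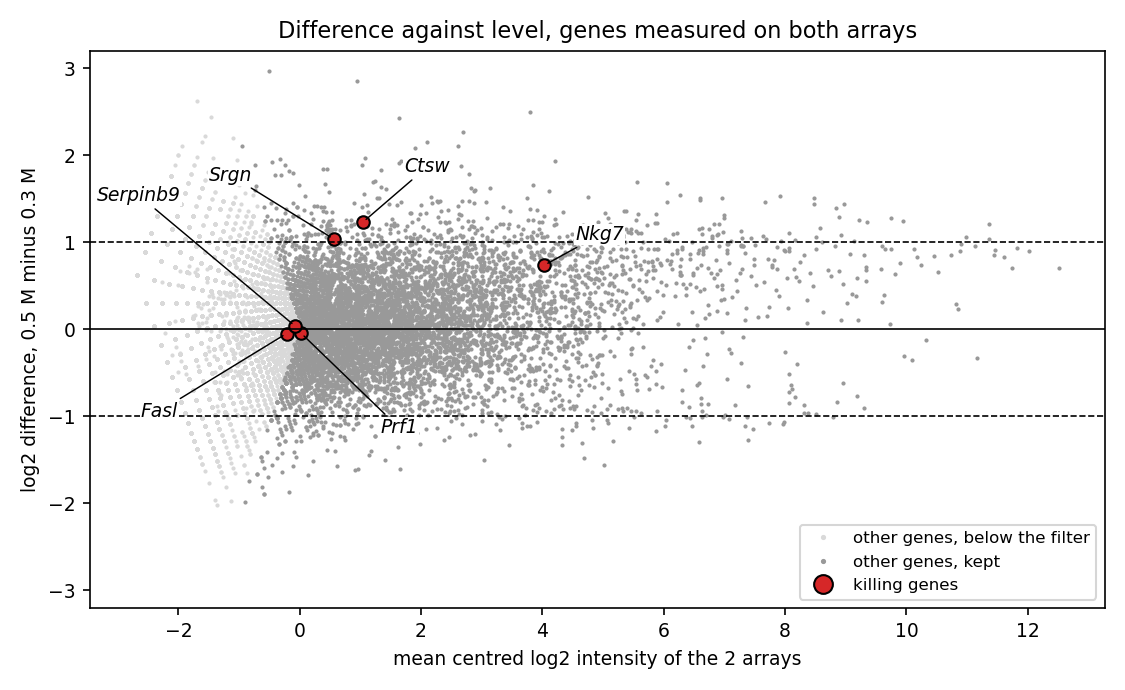
Log2 difference (0.5 M minus 0.3 M, centred) against mean centred log2 intensity for all genes measured on both arrays, with killing genes in red, kept genes in dark grey and genes below the filter in light grey; dashed lines mark 2-fold, and 1 gene lies outside the vertical axis. Ctsw and Srgn lie above the upper line, Nkg7 between the line and 0 among bright genes, and Prf1, Fasl and Serpinb9 near 0 at the edge of the filter.

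A contrast between genes on the same arrays does not depend on any constant shift between arrays. Relative to Prf1, Ctsw differed by 1.28, Srgn by 1.08 and Nkg7 by 0.78 on the log2 scale. With quantile normalization these were 1.24, 1.06 and 0.59, with loess 1.25, 1.07 and 0.52, and with the pseudocount 0.95, 0.76 and 0.64. The protease and the granule proteoglycan had more signal on the 0.5 M array, relative to perforin, under each scaling tried. That agreement is no separate support, because these scalings of the same arrays could hardly have turned the sign for Ctsw or Srgn. Srgn and Prf1 had equal intensities on the lower-salt array. A scaling that keeps the order of probes within an array must then leave Srgn above Prf1 at 0.5 M. Loess changed the contrasts of Ctsw and Srgn little. The SD between the differences of 2 probes of the same gene, at intensities from 20 to under 100, was 0.60. Serpinb9 differed from Prf1 by 0.08 and Fasl by less.

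**Figure D3:**
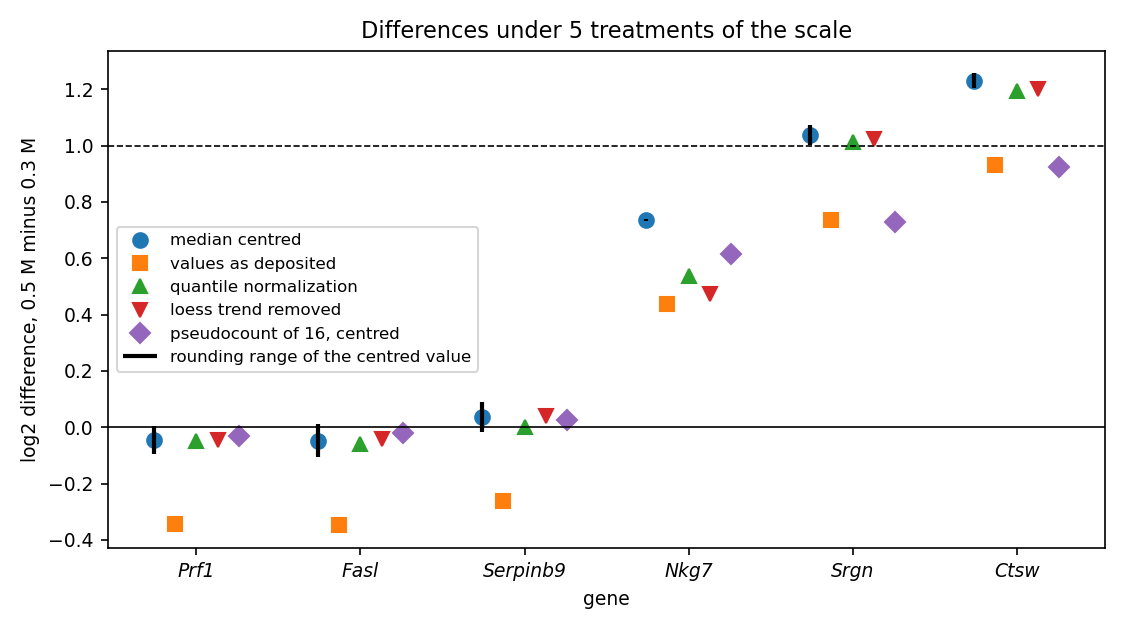
Log2 difference (0.5 M minus 0.3 M) of the 6 genes measured on both arrays under 5 treatments of the scale. A bar gives the range that rounding of the gene's own deposited values allows, with the array medians held fixed. Nkg7, Srgn and Ctsw stay above 0 under all 5, Srgn and Ctsw fall below the dashed 2-fold line as deposited and with the pseudocount, and Prf1, Fasl and Serpinb9 leave the neighbourhood of 0 only as deposited.

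The death ligands were dim. Fasl, which encodes Fas ligand, read 28 at 0.3 M and 22 at 0.5 M. At 0.3 M 53.9% of probes were as dim or dimmer, and at 0.5 M 46.8%. Its difference was -0.05, with a rounding range of -0.11 to 0.01, and -0.35 as deposited. In sign and size it was like that of Prf1. Tnfsf10, which encodes TRAIL, had a value on the 0.5 M array alone, at an intensity of 7, where 11.5% of probes were as dim or dimmer.

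Crtam, a surface receptor of activated CD8 T cells that binds the adhesion molecule Cadm1, showed the opposite pattern. Its probe read 8 at 0.3 M, with 17.7% of probes as dim or dimmer, and was empty at 0.5 M. No fold was computed for Crtam or Tnfsf10, because the rule behind empty cells is not given in the sources used here. Of the 701 probes at exactly 8 at 0.3 M, 319 (45.5%) were empty at 0.5 M, so the pattern of Crtam was common at its intensity. Of the 628 probes at exactly 7 at 0.5 M, 97 (15.4%) were empty at 0.3 M, so that of Tnfsf10 was less usual. Neither gives a direction.

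**Figure D4:**
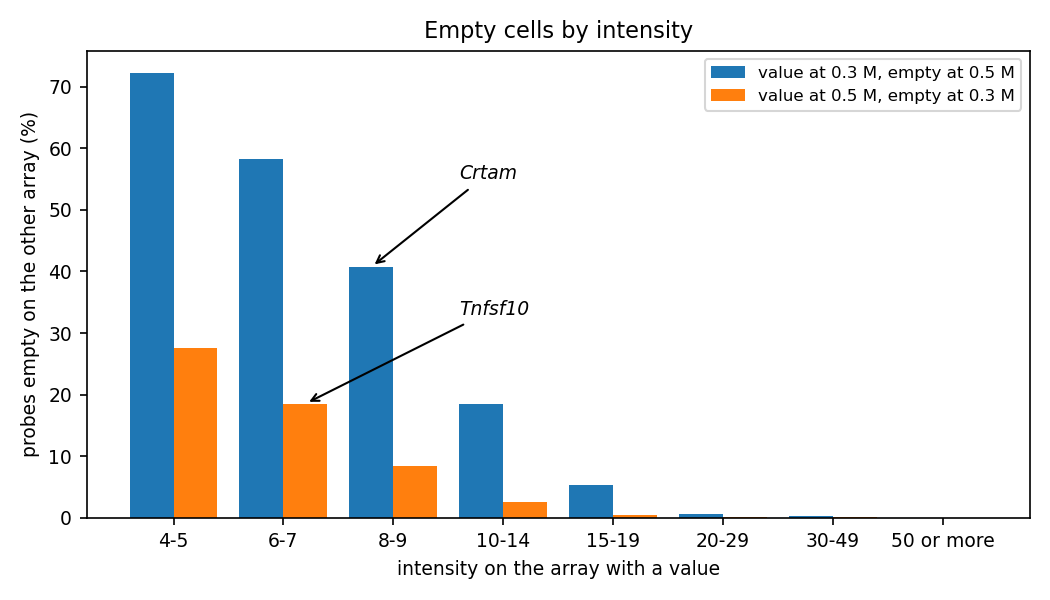
Percent of probes that were empty on the other array, by intensity on the array that had a value; arrows mark the classes of Crtam and Tnfsf10. At 8 to 9 on the 0.3 M array 40.7% were empty at 0.5 M, at 6 to 7 on the 0.5 M array 18.5% were empty at 0.3 M, and at 50 or more none were empty in either direction.

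Serpinb9, the inhibitor that guards CTL against their own granzyme B, read 30 at 0.3 M and 25 at 0.5 M. At 0.3 M 55.8% of probes were as dim or dimmer, and at 0.5 M 50.5%. Its difference was 0.04, with a rounding range of -0.02 to 0.09. The sign turned with the values as deposited (-0.26), and the difference was 0 with quantile normalization.

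The genes whose pair of centred values lay nearest were looked up for the 2 brightest of the 6, by Euclidean distance over the 2 arrays. For Nkg7 they were Selenok (417 to 557, distance 0.05), Pim2 (409 to 578, 0.08) and Swi5 (381 to 541, 0.09). For Ctsw they were Pram1 (41 to 80, 0.08), Tmem71 (45 to 79, 0.08) and Slc44a2 (46 to 85, 0.11). With 2 values a gene, such likeness is loose.

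Genes that work with the 8 were described from lists, by counts and medians beside the 0.05 over all 13735 genes measured on both arrays, of which 5.1% were 2-fold higher and 2.77% 2-fold lower. Granzymes and the cathepsins that process them had 9 of 12 genes measured on both arrays, of which 4 were at least 2-fold higher and 0 lower. Their median of 0.88 was the value of the cathepsin Ctsh, too dim to be kept (6 to 9). The higher genes were Gzmg (135 to 330, 1.59), Gzmd (32 to 58, 1.16), Gzmm (24 to 42, 1.11) and Gzme (19 to 32, 1.05). Whether probes of related granzymes bind each other's RNA was not checked, so these may not be separate signals. Gzmb, the main partner of perforin, went from 2493 to 2838 (0.49), and Gzmn went the other way (46 to 25, -0.58). The 8 kept genes of the list, all granzymes, had a median of 0.82. Gzmd, Gzme and Gzmm passed the filter only by their 0.5 M value, and Gzmn only by its 0.3 M value. That median is thus tied to the selection and is no separate support. As deposited, 1 granzyme passed 2-fold and the median was 0.58, and with the pseudocount 1 passed and the median was 0.47. Ctsc, the protease that activates granzymes, was dim, at 6 at 0.3 M and empty at 0.5 M.

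Genes of granule transport and fusion had 15 of 19 measured on both arrays, a median of 0.17, 1 gene at least 2-fold higher and 0 lower. That gene was the syntaxin Stx7 (19 to 41, 1.41), which did not pass with the pseudocount. The actin regulator Coro1a (1746 to 2614, 0.88), the SNARE Vamp8 (351 to 501, 0.81) and Sytl1 (187 to 249, 0.71) came next among kept genes. Unc13d, which primes granules for fusion, had a difference near 0 (63 to 51, -0.01), and Rab27a, the GTPase that tethers granules at the membrane, went from 96 to 67 (-0.22). The median of the list was -0.13 as deposited, where that of all genes was -0.25.

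Glycosaminoglycan enzymes, which build the chains that serglycin carries, had differences centred near 0, unlike that of Srgn. Their median was 0.03 over 16 of 22 genes and 0.24 over the 7 kept. Over the 16 it was -0.02 with quantile normalization and -0.27 as deposited. None was 2-fold higher and 1 was 2-fold lower, the dim Csgalnact1 (20 to 6, -1.44), named after its value was seen. Xylt1 and Xylt2, which start the chains, were both at 0.48, the chondroitin polymerizing factor Chpf at 0.33 and the heparan sulfate polymerase subunit Ext2 at -0.58 (144 to 78).

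Other papain-like cathepsins were measured on both arrays for 5 of 10 genes, with a median of 0.49 and none past 2-fold. They ran from Ctsk at -0.84 to Ctsh at 0.88, all dim apart from Ctsb, which read 45 on both arrays (0.30), and as deposited 1 was 2-fold lower. Membrane proteins related to Nkg7 had a median of -0.30 over 5 of 6 genes, but 0.48 over the 2 kept. The kept genes were Emp3 (380 to 742, 1.26), which was 2-fold higher, and Emp1 at -0.30. With loess no gene of that list passed 2-fold, and as deposited 1 was lower and 0 higher. Other pore-forming proteins, mostly of complement and of the gasdermin family, were measured for 3 of 7 genes. Mpeg1, which belongs to neither, was empty on both arrays. Gsdmd, which opens pores in pyroptosis, went from 61 to 137 (1.47) and the complement subunit C8a from 54 to 93 (1.08), while C6 was dim (8 and 7). As deposited and with the pseudocount 1 of these passed 2-fold.

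The death receptor list covers signalling by Fas ligand and TRAIL and also receptors and adaptors of TNF. It had no gene past 2-fold among 14 of 17 measured on both arrays, and a median of 0.05 (-0.25 as deposited, the median of all genes). Fas, the receptor of Fas ligand, was dim (16 to 20, 0.62), and so was Tnfrsf10b, a mouse TRAIL receptor (24 to 14, -0.48). Tnfrsf23, also on the list, was brighter and was kept (77 to 68, 0.12). The initiator Casp8 went from 30 to 35 (0.52). The adaptor Tradd was bright and lower (1512 to 826, -0.57), the TNF receptor Tnfrsf1b was at -0.24 and the caspase activator Diablo at 0.16. Other ligands of the TNF family had a median of 0.04 over 11 of 15 genes, -0.26 as deposited and -0.22 over the 7 kept. Of the 11, 1 gene was at least 2-fold higher and 0 lower. It was Cd70, too dim to be kept (5 to 10, 1.30) and named after its value was seen, and with the pseudocount 0 passed. Tnfsf14 was at -0.63, Tnfsf8 at -0.42, Tnfsf12 at -0.38 and the lymphotoxin gene Lta at 0.47.

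Inhibitors of granule enzymes had a median of 0.38 over 12 of 16 genes and 0.11 over the 11 kept. Of the 12, 3 were at least 2-fold higher and 0 lower. These were Serpinb9d (34 to 57, 1.04), the cathepsin inhibitor Cstb (281 to 468, 1.04) and Serpina3f (5 to 22, 2.44), the last too dim to be kept and named after its value was seen. As deposited, 1 passed 2-fold and the median over the 12 was 0.08. Cst3 was at 0.97 and Serpinb6c at 0.87, whereas Serpinb6b was at -0.08. Of the nearest relatives of Serpinb9, Serpinb9e (-0.04) and Serpinb9f (0.10) had differences close to its own, and Serpinb9b (0.64) and Serpinb9d higher ones. These serpins are related in sequence, and whether their probes bind each other's RNA was not checked.

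Receptors and ligands of the nectin-like family, to which Crtam belongs, had a median of 0.12 over 9 of 11 genes (-0.18 as deposited) and none past 2-fold. Cadm1, the ligand of Crtam, was empty on both arrays. Scrib, a polarity protein that Crtam engages, read 625 and 648 (0.35). Cadm4 went from 585 to 253 (-0.91, and 1 gene of the list was 2-fold lower as deposited, with quantile normalization and with loess), Cd96 was at -0.40 and Cd226 at -0.34.

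**Figure D5:**
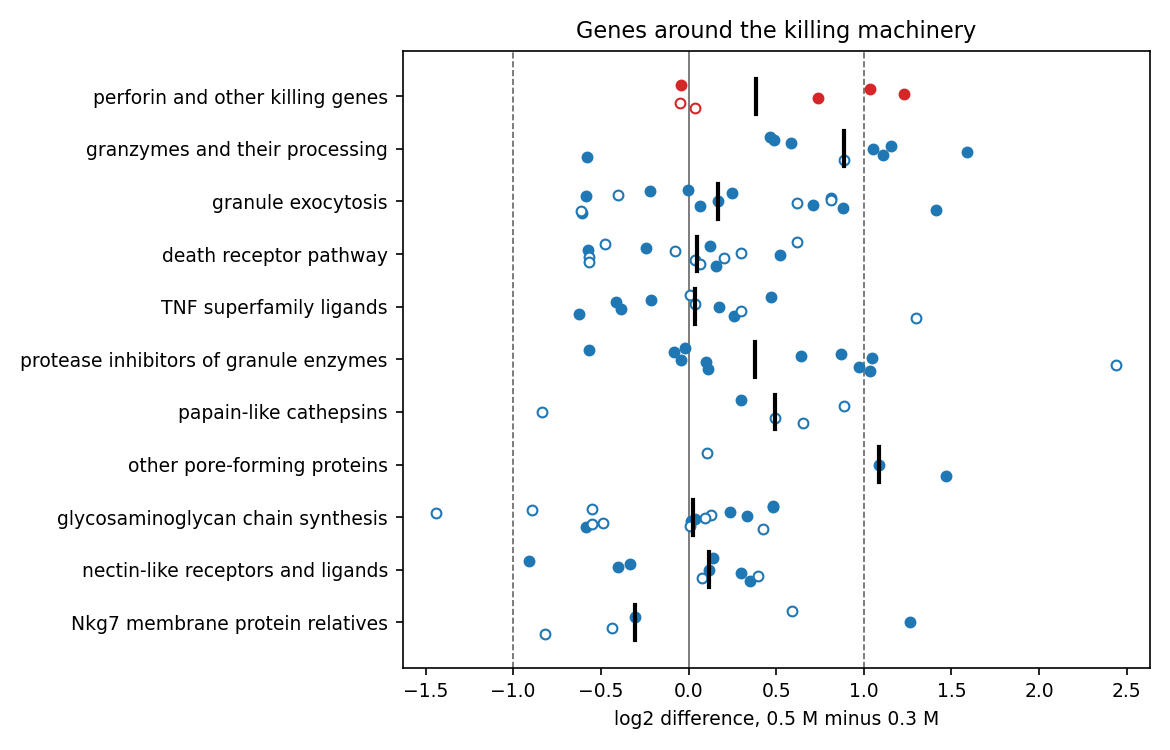
Log2 difference (0.5 M minus 0.3 M, centred) of each gene measured on both arrays, for the killing genes (red) and 10 lists around them (blue); filled points passed the filter on dim genes, open points did not, black bars are list medians over all points and dashed lines mark 2-fold. Granzymes and their processing cathepsins lie mostly to the right of 0, with a median of 0.88 that is the value of the dim Ctsh. The death receptor list lies within the dashed lines around a median of 0.05.

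CTL markers were present, as the label says. Of 14 on the array 13 were measured on both, with a median difference of 0.52 and none past 2-fold (with loess 1 was lower). That median was 0.26 with quantile normalization, 0.15 with loess and 0.41 with the pseudocount. As deposited it was 0.22, where that of all genes was -0.25. The summed intensity of the markers went from 50001 to 35641, most of it from Tbx21 (39433 and 25174). Such sums, here and below, add unlike probes and do not measure how much RNA came from a cell type. Cd8a read 3677 and 2463, whereas Cd3e was dim (12 and 14) and Ptprc had a value at 0.3 M alone (13).

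Prf1, Ctsw, Nkg7, Fasl and Crtam are also made by NK cells. Of 9 NK markers 7 were measured on both arrays, with a median of 0.41, and their summed intensity was 264 at 0.3 M and 360 at 0.5 M. Klra8, an Ly49 receptor, made up most of it (151 to 244, 0.99) and Eomes was at 0.45. Ncr1 was near the lowest intensities (5 and 9), with a difference of 1.15 that was the only one past 2-fold; as deposited, with quantile normalization, with loess and with the pseudocount 0 passed. Klrb1c and Klri2 were empty on both arrays. The part of NK cell RNA in the differences of Ctsw and Nkg7 was not tested.

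Srgn is also abundant in mast cells, neutrophils, platelets and macrophages. Mast cell and neutrophil markers had a median of 0.28 over 6 of 12 genes (-0.02 as deposited), none past 2-fold, and summed intensities of 150 and 147, with Cma1 and Kit empty on both arrays. Their brightest were Ly6g (43 to 53, 0.60) and S100a8 (41 and 40, 0.26). Macrophage and dendritic cell markers had a median of 0.33 over 7 of 12 genes and 0.06 over the 4 kept. Of these markers 1 was 2-fold lower, Mrc1 (259 to 87, -1.27), and their sum fell from 456 to 265. Adgre1, Itgam and Mpeg1 were empty on both arrays, and Csf1r (49 and 50), Cd68 (50 and 53) and Siglech (50 and 35) were modest. Markers of red cells and platelets had a median of -0.44 over 7 of 8 genes, with 1 lower, the globin Hbb-bs (3747 to 1518, 2.01-fold lower). The count was 2 lower as deposited and with quantile normalization and 3 with loess. Their sum was 17236 against 7989, nearly all of it globin signal. Of the platelet genes, Ppbp went from 50 to 39 (-0.06), Pf4 from 33 to 20 (-0.42) and the dim Gp9 from 10 to 6 (-0.44). Itga2b was empty on both arrays. The sums are of deposited intensities, which carry the shift between arrays. The part of RNA from these cells in the difference of Srgn was not tested.

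Markers of B cells had a median of -0.15 over 7 of 9 genes, 0.70 over the 4 kept, and sums of 636 and 708. Cd79b (94 to 328, 2.10) and Blnk (26 to 63, 1.58) were 2-fold higher, and Blnk passed the filter only by its 0.5 M value. Cd22 was at -0.54. Ebf1, at -0.17, was the mean of a bright probe (218 to 137) and a dim one (12 to 10). Pax5 and Cr2 were empty on both arrays. Markers of helper and regulatory T cells had a median of 0.16 over 7 of 8 genes, -0.14 as deposited and -0.19 over the 3 kept. None passed 2-fold, and the sums were 300 and 276. Cd4 was at -0.38 (40 to 25), Il17a at -0.19 and Zbtb7b at 0.19. Their part in the differences of the killing genes was not tested.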

How the data were processed

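The deposited table holds 1 intensity per probe and array for 23473 probes. Per the labels' protocols, amino allyl RNA was made by amplification and coupled to Cy5. The sources used here do not give the scanner, the background correction, the scaling by the authors or the reason for empty cells. A value was present for 18969 probes at 0.3 M and 16732 at 0.5 M. Symbols came from the platform annotation, updated through RefSeq genes of GRCm38.p6 by Entrez identifier (20556 probes) or accession (9). No build is named for the array's own probes, so no coordinates are printed. The number of arrays limits the precision.

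Intensities were log2-transformed, each array was centred on its median over shared probes, and genes were the mean of their probes (Python 3.11.15, numpy 2.4.6, pandas 2.3.3, statsmodels 0.14.6). The calculation was tested on simulated intensities. Empty cells were left empty. Alternatives were values as deposited, quantile normalization, loess (span 0.3), a pseudocount of 16, no filter, a filter at the upper quartile, and the brightest probe. The text names all members, up to 4 kept genes of each of 17 lists with the largest absolute difference, 12 preset partner genes, and 3 nearest genes for each of 2 members. Genes outside that rule are named where a count, a list's brightest or dimmest genes, or a fuller account of its members called for it. Members and lists were chosen with earlier results of these data known. No sequence is printed.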

Additional observations from a re-analysis of the deposited data

How the results depend on the processing

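With 1 array a fraction no test was possible, and no replicate could be left out. No paired analysis was possible because each group holds 1 sample. A difference was read as moved if it changed by more than 0.55, the SD between probes of the same gene, and a count if it changed by more than 1.5 times. None of the single-gene differences of the killing genes moved by that rule. Most settings could not have moved one: the values as deposited shift every gene by the same -0.30, and the filters leave each difference as it was. Only quantile normalization, loess and the pseudocount could have. The count of 2-fold higher killing genes, 2 with centring, was 0 as deposited, 0 with the pseudocount and 1 with the stricter filter, which removes Srgn. The median difference of the killing genes was 0.98 with that filter, which leaves only Ctsw and Nkg7, and ran from 0.09 (as deposited) to 0.39 otherwise. The brightest-probe rule changes no killing gene, since each has 1 probe. Among all kept genes, 390 were higher and 175 lower. These counts were 121 and 579 as deposited, 250 and 288 with quantile normalization, 235 and 293 with loess, 157 and 98 with the pseudocount, 701 and 380 with no filter, and 83 lower with the stricter filter. The share of higher genes among those past 2-fold was thus 69.0% with centring, 17.3% as deposited, 46.5% with quantile normalization, 44.5% with loess, 61.6% with the pseudocount and 77.4% with the stricter filter. Low signal limits Tnfsf10 and Crtam, each with 1 empty cell, and leaves the signs for Prf1, Fasl and Serpinb9 within rounding.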
